A study of Mus musculus with 7 samples.

Results

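The insulin-like growth factor (IGF) genes described here are the growth factor Igf1, the receptors Igf1r and Igf2r, and the 7 binding protein genes Igfbp1 to Igfbp7. They were chosen by name alone, as every probe whose gene name, or whose accession's current symbol, is one of these 10 genes. All 10 genes have a probe, and they are covered by 19 of the 41138 usable probes, or 10 of 27583 genes and unnamed probes. Expression was measured on 7 Agilent 1-colour microarrays, each with Cy3-labelled RNA of 1 sample from C57BL/6 mice. Mouse embryonic fibroblasts (MEF, 3 arrays) came from embryos at 13.5 days post coitum and, per the series' design text, were prepared individually. Induced hepatocyte-like cells (iHep, 3 arrays) were derived from MEFs, and the study is known to have made them with retroviral Hnf4a together with a Foxa gene. The 3 iHep arrays are 3 types, labelled 4α1, 4α2 and 4α3, with 1 array each, and the labels do not explain that last digit. The remaining array holds hepatocytes from adult mouse liver. No treatment, sex, passage or age of the adult mice is given in the sources used here.

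IGF1 is a secreted growth factor that hepatocytes of the adult liver release into blood when growth hormone acts on them. It acts on target cells through the tyrosine kinase receptor encoded by Igf1r, which adult hepatocytes are known to carry at low density, while Igf2r encodes the mannose-6-phosphate receptor that takes up IGF2 for breakdown in lysosomes. The binding proteins hold IGFs in blood and tissue and lengthen their life or limit their access to receptors. In the circulation most IGF is held by IGFBP3 or IGFBP5 together with the acid-labile subunit, a liver product of Igfals.

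A level below is log2 of the spot signal relative to the 75th percentile of its array, so that a level of 0 is brighter than most probes, and levels are comparable between arrays for 1 probe but not between genes. The 75th percentile signal ranged from 608.2 to 1484 and the share of probes well above background from 60.2% to 68.7%. Slide 1 held MEF 1 and the 3 iHep arrays, slide 2 held MEF 2 and MEF 3 and was scanned on another day, and slide 3 held the hepatocyte array. MEF 2 and MEF 3 differed by 0.62 to 1.04 times the noise of repeated spots, against 4.37 to 4.80 times for MEF 1 and MEF 2, so these arrays may hold the same RNA, and they were averaged and counted as 1 sample (MEF n = 2). Every test is limma's over 19133 genes with Benjamini-Hochberg adjustment, a call is an adjusted p under 0.05, and errors of changes are standard errors. The hepatocyte group has n = 1, so its spread was taken to be that of MEF and iHep. A p-value here reflects no more than the spread among these particular samples, and for iHep (n = 3) that is a spread among types. In RNA from many cells, fewer cells of a type and less RNA per cell cannot be told apart. Of 9 hepatocyte marker genes, 9 were above background on the hepatocyte array and 6 to 7 on the iHep arrays, where Cyp2e1 and Cyp7a1 were on none. A single hepatocyte marker, Tat, was above background on the MEF arrays. All 10 fibroblast markers were above background on every MEF and iHep array. Markers of other epithelia moved with iHep as well. Of 8 gut epithelium markers tested, 7 were higher in iHep than in MEF (median change 12.14), with Tff3 at least 17533-fold and Gkn2 at least 7179-fold higher. Of 6 bile duct markers tested, 5 were higher (median 5.64), with Krt19 53-fold higher. Their summed levels in MEF, iHep and hepatocytes were -2.03 to -1.90, 8.76 or more and 5.28 for gut, and 7.96 to 8.29, 7.72 to 7.94 and 2.25 for bile duct. The bile duct sum in MEF is led by Spp1 (7.94 to 8.27), the 1 bile duct marker called lower in iHep than in MEF (-3.38). The gut sum in hepatocytes is led by Fabp2 (4.94). Such sums are no measure of the whole list. Muc2 was above background on no iHep array, and the part of such cells in the iHep results was not tested.

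Hepatocytes differed from MEF in most of the IGF genes. Igf1, Igfbp1 and Igfbp4 were higher there than in MEF, and Igf1r, Igf2r, Igfbp3, Igfbp5, Igfbp6 and Igfbp7 were lower, so that 9 of the 10 genes were called, where 53.5% of all genes tested were (28.4% higher and 25.1% lower). Igfbp1 entered the test only through the hepatocyte array and Igfbp6 only through MEF and iHep. The filter therefore bears on the calls of both genes, here and for hepatocytes against iHep. Of the 8 genes above background on all 7 arrays, 7 were called. The median change of the 10 genes was -2.62 on the log2 scale, against 0.14 over all genes tested. The count was 5 without MEF 1 and 6 with scan day as a block, which leaves MEF 1 as the MEF sample. Hepatocytes and iHep differed in 7 of the 10 genes, with Igf1, Igfbp1, Igfbp2 and Igfbp4 higher in hepatocytes and Igf1r, Igfbp3 and Igfbp6 lower, where 49.2% of all genes were called (27.1% higher and 22.1% lower), and 5 of the 8 genes above background on all arrays. The median change of the 10 genes there was -1.39 against 0.17, and the count called of the 10 fell to 4 without iHep 4α1. Since hepatocytes enter both comparisons, the shared calls are not independent of each other.

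For iHep against MEF, 3 of the 10 genes were called. Igf1r, Igf2r and Igfbp6 were lower in iHep, 0 were higher in limma's test, also at an unadjusted p under 0.05 (0 higher, 5 lower), and 23.3% of all genes tested were called (10.1% higher and 13.2% lower). The median change of the 10 genes was -1.46 against -0.04. These 3 calls rest partly on arrays of another slide. Within slide 1, which leaves MEF 1 against the 3 iHep types, Igf1r, Igf2r and Igfbp6 had changes of -0.78, -1.40 and -1.31. None of the 3 calls held there, but with 1 MEF sample left far fewer genes of any kind were called. Without MEF 1, which also leaves 1 MEF sample, fewer of the 10 genes were called as well. All 3 iHep types lay below every MEF array for 6 of the 10 genes, namely Igf1, Igf1r, Igf2r, Igfbp3, Igfbp5 and Igfbp6, as for 31.3% of all genes tested. No IGF gene had all 3 types above every MEF array, against 24.9% of all genes.

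**Figure D1:**
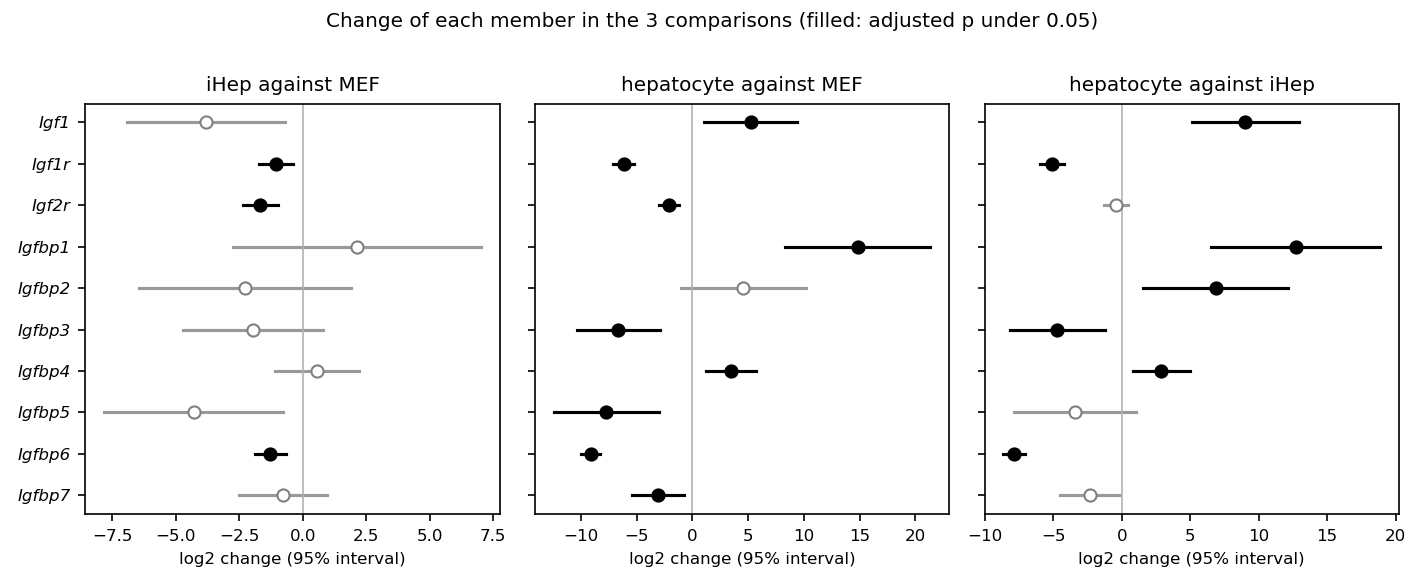
Change of each of the 10 genes in the 3 comparisons, on the log2 scale, as the fitted value (point) with its 95% interval (bar); filled points passed an adjusted p under 0.05, and the axis range differs between the panels. Most intervals in the hepatocyte comparisons are wide, and those of Igf1r, Igf2r and Igfbp6 are narrower, around -6.17, -2.12 and -9.15 against MEF. The Igfbp6 reading in hepatocytes was not well above background, so its interval there does not bound its change.

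Igf1, the growth factor itself, was read by a probe with 10 spots on chromosome 10 at 87360570 to 87360629 (build mm8). Its level was 1.07, 1.67 and 1.59 in MEF 1, 2 and 3, then -1.30, -1.25 and -4.84 in iHep 4α1, 4α2 and 4α3, and 6.57 in hepatocytes. The groups did not overlap, with hepatocytes highest, MEF in the middle and iHep lowest. Hepatocytes exceeded MEF by 5.22 ± 1.62 (37.2-fold, adjusted p = 0.0449) and iHep by 9.03 ± 1.53 (523-fold, adjusted p = 0.00788). Without iHep 4α3 the difference from iHep was 7.84 (229-fold), and without iHep 4α2 it was 9.64 (798-fold). The call against MEF was lost without MEF 1 (4.94, adjusted p = 0.141) without iHep 4α1 (adjusted p = 0.0574), with quantile normalization (4.41, adjusted p = 0.0624), in the authors' table, without a filter on dim probes and with scan day as a block, and held in 9 of 15 alternatives, while the call against iHep held in all 15 alternatives. iHep and MEF differed by -3.81 ± 1.21 (95% interval -6.91 to -0.71, adjusted p = 0.0826), which did not pass the test. Without iHep 4α3 that difference was -2.63 and passed it (adjusted p = 0.00949). The other 2 Igf1 probes gave 4.98 and 5.34 for hepatocytes against MEF, close to the brightest probe. iHep 4α3, the type with the lowest Igf1, was 12-fold below the highest type and still above background.

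**Figure D2:**
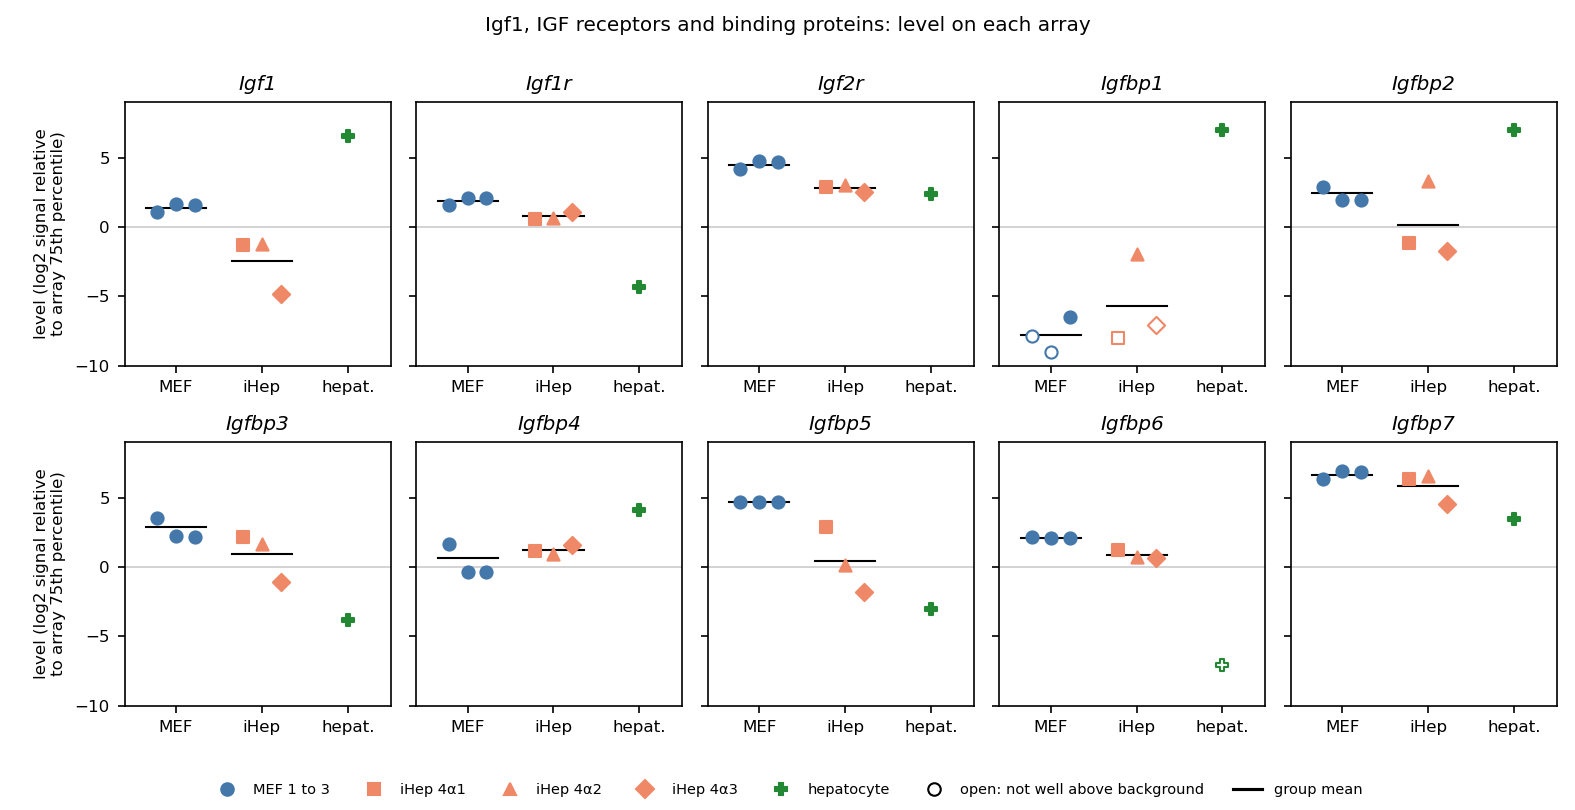
Level of each of the 10 genes on each of the 7 arrays (log2 signal, 75th percentile of the array set to 0), by group, with open symbols for spots not well above background and a line at the MEF mean (MEF 2 and MEF 3 averaged first) and the iHep mean. Igf1 and Igfbp1 each have their highest level on the hepatocyte array, at 6.57 and 7.01, and Igf1r and Igfbp6 each have their lowest there, at -4.34 and -7.03.

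Of the receptors, Igf1r, through which IGF1 signals, was much lower in hepatocytes than in both other groups. Its brightest probe lies on chromosome 7 at 68105625 to 68105684. Its level was 1.57, 2.11 and 2.09 on the MEF arrays, 0.61, 0.68 and 1.09 on the iHep arrays and -4.34 in hepatocytes, and no array of one group overlapped another group. Igf1r was 72.2-fold lower in hepatocytes than in MEF (-6.17 ± 0.36, adjusted p = 0.000371) and 35-fold lower than in iHep (-5.13 ± 0.34, adjusted p = 0.000556), and both calls held in all 15 alternatives. The hepatocyte spot was still well above background, so the low level is a measured one. Between iHep and MEF it was 2.06-fold lower (-1.05 ± 0.27, adjusted p = 0.049), a call that did not hold without MEF 1, iHep 4α1 or iHep 4α2 (adjusted p = 0.0948, 0.134 and 0.128) and held in 6 of 15 alternatives. The 3 other Igf1r probes gave -1.13, -1.84 and -0.11 for iHep against MEF, so the dimmest of them showed almost no difference.

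Igf2r, the scavenging receptor, followed another pattern, in which iHep and hepatocytes lay close together below MEF. Its probe starts on chromosome 17 at 12525745, where the array's annotation lists only 11 bases of it. Its level was 4.21, 4.76 and 4.72 on the MEF arrays, 2.86, 3.06 and 2.54 on the iHep arrays and 2.35 in hepatocytes. Every MEF array was above every other array. Igf2r was 3.16-fold lower in iHep than in MEF (-1.66 ± 0.27, adjusted p = 0.0146) and 4.35-fold lower in hepatocytes than in MEF (-2.12 ± 0.36, adjusted p = 0.00719). Hepatocytes and iHep differed by -0.46 ± 0.34, with a 95% interval from -1.34 to 0.41 (adjusted p = 0.303).

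The binding protein genes Igfbp1 and Igfbp3 are next to each other on chromosome 11, and Igfbp2 and Igfbp5 are next to each other on chromosome 1, among protein-coding genes of the RefSeq GRCm38.p6 table. In each pair the first gene was higher in hepatocytes than in iHep while the second, at its brightest probe, was at its lowest in hepatocytes, so the 250 bases upstream of their starts are printed to show what these paired genes have in front of them. The windows come from RefSeq (GRCm38.p6), 5′ to 3′ on the strand of each gene. Igfbp1 is on the plus strand (chr11:7197537-7197786), Igfbp3 on the minus strand (chr11:7213924-7214173), Igfbp2 on the plus strand (chr1:72824230-72824479, the first of 2 listed starts) and Igfbp5 on the minus strand (chr1:72874866-72875115). Capitals mark the motif matches described after them.
Igfbp1: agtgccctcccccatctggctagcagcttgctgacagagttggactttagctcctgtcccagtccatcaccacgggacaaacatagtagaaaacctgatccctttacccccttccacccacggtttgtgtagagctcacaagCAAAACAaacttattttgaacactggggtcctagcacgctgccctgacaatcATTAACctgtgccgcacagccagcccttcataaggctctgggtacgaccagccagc
Igfbp3: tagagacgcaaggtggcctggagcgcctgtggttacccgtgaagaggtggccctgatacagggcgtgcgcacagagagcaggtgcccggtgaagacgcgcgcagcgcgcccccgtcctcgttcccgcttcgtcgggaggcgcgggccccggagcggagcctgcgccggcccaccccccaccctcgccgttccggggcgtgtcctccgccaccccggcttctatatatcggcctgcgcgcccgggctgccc
Igfbp2: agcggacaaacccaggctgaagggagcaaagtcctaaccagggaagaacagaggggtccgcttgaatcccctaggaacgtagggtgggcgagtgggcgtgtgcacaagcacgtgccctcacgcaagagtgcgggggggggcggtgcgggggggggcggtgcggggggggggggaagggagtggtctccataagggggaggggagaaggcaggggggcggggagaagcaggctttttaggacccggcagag
Igfbp5: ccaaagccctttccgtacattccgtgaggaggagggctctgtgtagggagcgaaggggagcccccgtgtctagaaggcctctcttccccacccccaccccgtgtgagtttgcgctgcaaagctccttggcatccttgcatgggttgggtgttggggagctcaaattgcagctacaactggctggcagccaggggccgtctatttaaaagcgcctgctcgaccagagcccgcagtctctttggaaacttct

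The windows differ in base composition, with 53.2% G and C in Igfbp1, 58.8% in Igfbp5, 67.2% in Igfbp2 and 73.2% in Igfbp3. In the Igfbp1 window the first capitals are CAAAACA, the core of an insulin response element, 108 to 102 bases before the start, and the other capitals, ATTAAC, are the HNF1 core GTTAAT on the minus strand, 56 to 51 bases before the start. Searched on both strands, CAAAACA is found in 5.56% of 32851 such windows and GTTAAT in 6.43%, and each in 1 of the 11 windows of the 10 genes. The forkhead core TGTTTAC (3.17% of windows) and the HNF4 core CAAAGTCCA (0.384%) matched none of the 11. AGGTCA, a core of nuclear receptor sites (14% of windows), matched in Igf1, Igf1r and Igf2r, and the TATA box core TATAAA (12.4%) in Igfbp4 and Igfbp6. None of these 6 motifs overlaps another in the windows of the 10 genes, and a match is a match of letters only.

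Igfbp1, a binding protein that the liver is known to secrete in fasting, was a gene of the hepatocyte array. Its probe lies on chromosome 11 at 7102442 to 7102501. Its level was -7.87, -9.05 and -6.49 on the MEF arrays, -8.04, -1.93 and -7.05 in iHep 4α1, 4α2 and 4α3, and 7.01 in hepatocytes. It was well above background on the arrays of MEF 3, iHep 4α2 and hepatocytes alone, and passed the filter on dim probes only through the hepatocyte array, so that it had to be high there. Its hepatocyte level is therefore given without a test, and without a fold, since 4 of the 6 other arrays were at background. iHep 4α2 stood well apart from the other types, and yet lay far below hepatocytes. iHep and MEF differed by 2.14 ± 1.90 (95% interval -2.74 to 7.02, adjusted p = 0.46), and by 0.27 without iHep 4α2.

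Igfbp2, a binding protein of fetal tissues and adult liver, had the widest range over the iHep types among the 8 IGF genes that were above background on all 7 arrays. Its probe lies on chromosome 1 at 72785310 to 72785369. Its level was 2.86, 1.97 and 1.97 on the MEF arrays, -1.18, 3.32 and -1.73 in iHep 4α1, 4α2 and 4α3, and 6.97 in hepatocytes. Types 4α1 and 4α3 lay below every MEF array and 4α2 lay above them all, while hepatocytes were higher than every other array. Hepatocytes exceeded iHep by 6.84 ± 2.06 (114-fold, adjusted p = 0.0439), a call that was lost without MEF 1, iHep 4α1 or iHep 4α3 (adjusted p = 0.0843, 0.095 and 0.0716) and held in 8 of 15 alternatives. Left out one at a time, 4α1, 4α2 and 4α3 gave 72.5-fold, 345-fold and 59.7-fold. Against MEF the difference of 4.56 ± 2.18 did not pass the test (95% interval -1.05 to 10.16, adjusted p = 0.135), nor did iHep against MEF (-2.28 ± 1.63, interval -6.46 to 1.90, adjusted p = 0.362). Leaving out iHep 4α2 turned both into calls, with adjusted p = 0.0044 for hepatocytes against MEF and -3.87 (adjusted p = 0.0118) for iHep against MEF.

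Igfbp4, which binds IGFs in tissue until the protease encoded by Pappa cuts it, was higher in hepatocytes than in both other groups. Its brightest probe lies on chromosome 11 at 98868110 to 98868169. Its level was 1.67, -0.39 and -0.36 on the MEF arrays, 1.17, 0.94 and 1.59 on the iHep arrays and 4.11 in hepatocytes. MEF 1 lay above all iHep types and MEF 2 and MEF 3 below them, so the 2 groups overlapped. Igfbp4 was 11-fold higher in hepatocytes than in MEF (3.46 ± 0.86, adjusted p = 0.0233), in all 15 alternatives, and 22.3-fold higher (4.48) without MEF 1. It was 7.34-fold higher than in iHep (2.88 ± 0.81, adjusted p = 0.0366), and was no longer called without iHep 4α1, 4α2 or 4α3 (adjusted p = 0.0831, 0.0775 and 0.0533), holding in 10 of 15 alternatives. For iHep against MEF the difference was 0.58 ± 0.64 (adjusted p = 0.553), and within slide 1 its sign turned (-0.44, adjusted p = 0.489).

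The other 4 binding protein genes were lower in hepatocytes than in MEF. Igfbp3, which encodes the main IGF carrier in blood, has its brightest probe on chromosome 11 at 7106594 to 7106653. Its level was 3.52, 2.27 and 2.19 on the MEF arrays, 2.14, 1.67 and -1.07 on the iHep arrays, and -3.80 in hepatocytes. MEF and iHep nearly met, at 2.19 and 2.14, and hepatocytes lay below both. The gene was 102-fold lower in hepatocytes than in MEF (-6.67 ± 1.44, adjusted p = 0.0152) and 26.2-fold lower than in iHep (-4.71 ± 1.36, adjusted p = 0.0392). The call against MEF was lost without MEF 1 (-6.03, 65.3-fold, adjusted p = 0.0667), and that against iHep without MEF 1, 4α1 or 4α2 (adjusted p = 0.0693, 0.0757 and 0.0796), holding in 13 and in 9 of 15 alternatives. Against iHep the difference was -4.10 (17.1-fold) without 4α1 and -5.70 (52-fold) without 4α3. The 2 dimmer probes did not show this size, with -1.96 and -1.99 against MEF and -0.29 and -1.09 against iHep. With the mean of all 3 probes, hepatocytes differed from MEF by -3.54 (adjusted p = 0.0766) and from iHep by -2.03 (adjusted p = 0.237). iHep and MEF differed by -1.96 ± 1.08 (interval -4.73 to 0.80, adjusted p = 0.249).

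Igfbp5, a binding protein laid down in matrix by mesenchymal cells, has its brightest probe on chromosome 1 at 72791462 to 72791521. Its level was 4.69, 4.70 and 4.71 on the MEF arrays, which lay close together, then 2.89, 0.13 and -1.80 in iHep 4α1, 4α2 and 4α3, and -3.03 in hepatocytes. All iHep types lay between MEF and hepatocytes. It was 212-fold lower in hepatocytes than in MEF (-7.73 ± 1.84, adjusted p = 0.0202), but not without MEF 1 (adjusted p = 0.075), and in 13 of 15 alternatives. iHep differed from MEF by -4.29 ± 1.37 (interval -7.81 to -0.77, adjusted p = 0.0844), which passed the test without iHep 4α1 (-5.53, adjusted p = 0.019), the type with the highest level. Hepatocytes and iHep differed by -3.44 ± 1.73 (interval -7.89 to 1.01, adjusted p = 0.157), and without 4α3 by -4.54 (adjusted p = 0.0403). A dimmer probe, above background on 4 of the 7 arrays, gave -0.12 for the same comparison.

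Igfbp6, which prefers IGF2 as its ligand, was read in MEF and iHep and not in hepatocytes. Its probe lies on chromosome 15 at 101977366 to 101977426. Its level was 2.16, 2.08 and 2.08 on the MEF arrays and 1.20, 0.73 and 0.63 on the iHep arrays, and in hepatocytes the probe was not well above background (-7.03). It was at least 235-fold lower in hepatocytes than in MEF and at least 97.6-fold lower than in iHep. Igfbp6 passed the filter on dim probes only through MEF and iHep, so these bounds are given without a test. "At least" sets the dimmer array at the lowest level that any probe reached above background on it. The fitted changes, -9.15 and -7.88, rest on a reading not well above background and are no bounds. Igfbp6 was 2.41-fold lower in iHep than in MEF (-1.27 ± 0.24, adjusted p = 0.0221). That call was lost without MEF 1 or iHep 4α2 (adjusted p = 0.121 and 0.0684) and held in 11 of 14 alternatives.

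Igfbp7, a matrix protein with low affinity for IGFs that endothelial cells and fibroblasts secrete, has its probe on chromosome 5 at 78424105 to 78424164. Its level was 6.33, 6.90 and 6.89 on the MEF arrays, 6.36, 6.55 and 4.56 on the iHep arrays and 3.50 in hepatocytes. Types 4α1 and 4α2 lay within the range of the MEF arrays and 4α3 lay below them. Igfbp7 was 8.62-fold lower in hepatocytes than in MEF (-3.11 ± 0.90, adjusted p = 0.0373), a call lost without MEF 1 and without iHep 4α1 (adjusted p = 0.0898 and 0.0554) that held in 12 of 15 alternatives. It differed by -2.32 ± 0.85 between hepatocytes and iHep (interval -4.51 to -0.13, adjusted p = 0.0756), and was called there without 4α3 (-2.95, adjusted p = 0.00513). For iHep against MEF the change was -0.79 ± 0.67 (interval -2.52 to 0.94, adjusted p = 0.443).

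The 3 iHep types differed from each other in IGF genes by more than most genes did. The range over types exceeded 2 on the log2 scale for 5 of the 10 genes, against 8.42% of all genes tested, and its median was 2.60 against 0.55. With 1 array each, these differences have no test, and Igfbp1 was above background on 1 of the 3. The highest type exceeded the lowest 33.2-fold for Igfbp2, 25.9-fold for Igfbp5, 12-fold for Igf1 and 9.21-fold for Igfbp3, and by 3.98 times for Igfbp7. Igf1r, Igf2r, Igfbp4 and Igfbp6 lay within 1.39-fold to 1.57-fold. Type 4α3 was the lowest for Igf1, Igf2r, Igfbp2, Igfbp3, Igfbp5, Igfbp6 and Igfbp7, and the highest for Igf1r and Igfbp4. Type 4α2 was the highest for Igf1, Igf2r, Igfbp1, Igfbp2 and Igfbp7. Type 4α1 had the highest Igfbp3, Igfbp5 and Igfbp6. The order among the types thus changed from gene to gene, though 4α3 was the lowest in most of them. Outside the IGF genes, type 4α3 stood below 4α1 and 4α2 for some markers and not for others. Alb, serum albumin, was at -0.21 against 6.46 and 7.92, and Col1a1, a collagen, at 4.01 against 5.21 and 5.44. The summed fibroblast marker level was 6.63 against 7.69 and 7.74. The hepatocyte marker Tat was higher in 4α3 (-0.87) than in 4α2 (-2.57), as was the fibroblast marker Thy1 (-0.79 and -2.65). Among gut markers, 4α3 was the highest type for Cdx2, Vil1 (6.27 against 3.84 and 4.85), Tff3, Gkn2 and Lgals4. It was the lowest for Fabp2 and lay between the others for Clca1. Among bile duct markers, it was the highest for Krt19, Epcam (1.97 against -0.10 and 1.68) and Tspan8. It was the lowest for Krt7 (3.09 against 5.21 and 5.63), Spp1 (4.14 against 5.22 and 4.83) and Cftr, and between for Sox9. Whether these marker levels run with the IGF levels of 4α3 was not tested.

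**Figure D3:**
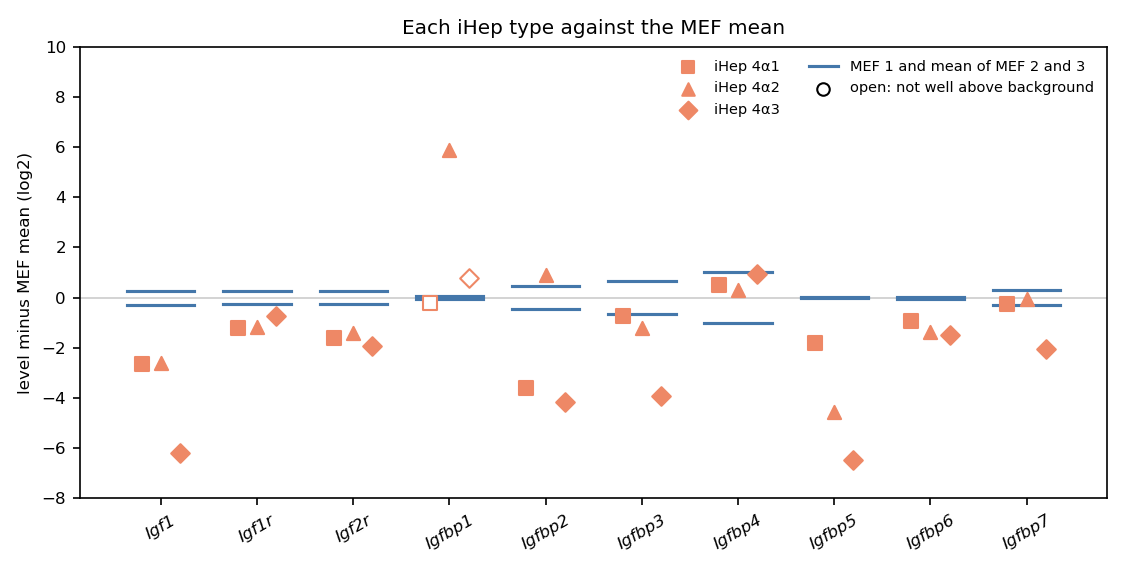
Level of each iHep type minus the MEF mean on the log2 scale for the 10 genes, with blue lines at MEF 1 and at the mean of MEF 2 and MEF 3 and open symbols for spots not well above background. The types are close together for Igf1r, Igf2r, Igfbp4 and Igfbp6 and far apart for Igfbp1, Igfbp2 and Igfbp5.

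The MEF samples themselves differed for 2 binding proteins. MEF 1 exceeded the mean of MEF 2 and MEF 3 by 1.29 for Igfbp3 and by 2.05 for Igfbp4, where a difference over 1 in either direction was seen in 10.7% of all genes. The median size over the 10 genes was 0.54, against 0.29 over all genes tested. MEF 1 is on the slide of the iHep arrays and MEF 2 and MEF 3 are on another, scanned on another day, so preparation, slide and scan cannot be told apart.

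Other genes of the IGF pathway were taken from 5 lists. Of 4 further ligands and receptors of the insulin family tested, 1 was higher and 2 were lower in iHep than in MEF (Insr higher, Igf2 and Ins2 lower). Over all genes tested, 10.1% were higher and 13.2% lower. In hepatocytes 2 of the 4 were higher and 2 lower than in MEF, where 28.4% and 25.1% of all genes were. Igf2, the fetal growth factor, had levels of 7.99, 7.78 and 7.77 on the MEF arrays, 6.42, 6.40 and 6.27 on the iHep arrays and -7.26, below background, in hepatocytes. It was 2.87-fold lower in iHep than in MEF (-1.52 ± 0.18, adjusted p = 0.0063) and at least 12753-fold lower in hepatocytes than in MEF. Igf2 passed the filter only through MEF and iHep, so the filter bears on its hepatocyte call and that bound is given without a test. Insr, the insulin receptor, moved the opposite way, with -1.91, -1.77 and -1.90 in MEF, -0.87, -0.41 and -0.44 in iHep and 1.75 in hepatocytes. It was 12.4-fold higher in hepatocytes than in MEF (3.63 ± 0.30, adjusted p = 0.000822). Its rise in iHep (1.30 ± 0.22, adjusted p = 0.0169) was 0.24 with the mean of its 2 probes (adjusted p = 0.446) and lost its call within slide 1 (1.34, adjusted p = 0.0891), without MEF 1 and without iHep 4α2 (adjusted p = 0.102 and 0.0537).

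In the list of 10 genes of the growth hormone axis, 5 were higher and 1 was lower in hepatocytes than in MEF, and 4 were higher and 2 lower in hepatocytes than in iHep, so that 6 were called in each, where 53.5% and 49.2% of all genes were. For iHep against MEF, 1 was lower and 0 were higher by limma (1 higher at an unadjusted p under 0.05). Ghr, the growth hormone receptor, had levels of 3.10, 3.27 and 3.20 in MEF, 0.94, 1.56 and 0.32 in iHep and 5.16 in hepatocytes, the same order of groups as Igf1. It was 18.6-fold higher in hepatocytes than in iHep (4.22 ± 0.50, adjusted p = 0.00273) and 4.68-fold lower in iHep than in MEF (-2.23 ± 0.40, adjusted p = 0.0185), the latter in 11 of 15 alternatives and not without MEF 1 or iHep 4α1 (adjusted p = 0.1 and 0.057). Igfals, the acid-labile subunit, was at 3.47 in hepatocytes and between -7.35 and -5.50 on all other arrays, of which 4 were above background. It was 616-fold higher in hepatocytes than in iHep (9.27 ± 0.42, adjusted p = 0.000229). Its iHep readings lay close to the lowest level above background on those arrays (-5.88, -6.12 and -6.16 in 4α1, 4α2 and 4α3), so the size of this fold is uncertain. The change ranged from 6.94 to 9.42 over 14 alternatives. Prlr, the prolactin receptor, was 35.2-fold higher in hepatocytes than in iHep (5.14 ± 0.42, adjusted p = 0.000933), and Socs1, an inhibitor of cytokine signals, 8.33-fold lower (-3.06 ± 0.54, adjusted p = 0.00882). Within slide 1 the median change of the 10 listed genes was 0.13 for iHep against MEF. With scan day as a block it was 2.13 for hepatocytes against MEF. Both fits leave 1 MEF sample and called fewer genes of any kind, and the Ghr call for iHep against MEF did not hold within slide 1.

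**Figure D4:**
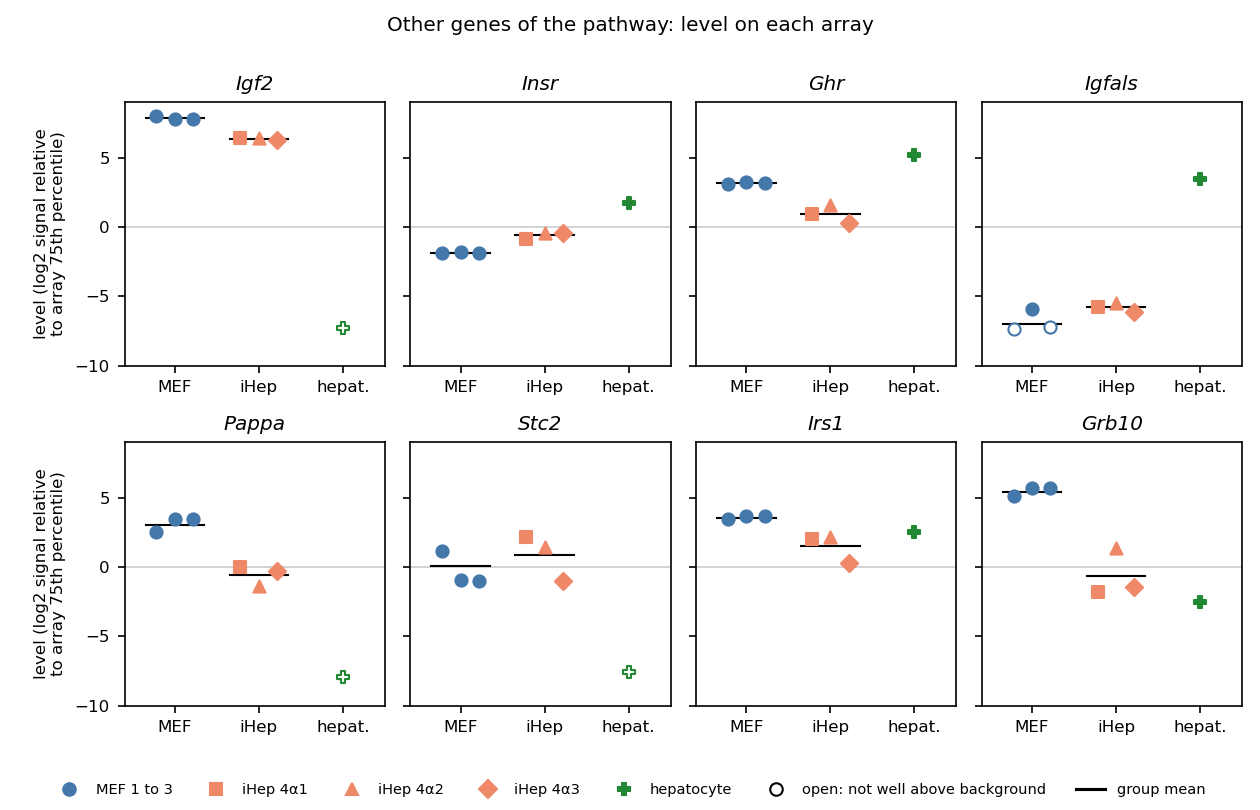
Level on each of the 7 arrays (log2 signal, 75th percentile of the array set to 0) of Igf2, Insr, Ghr, Igfals, Pappa, Stc2, Irs1 and Grb10, with open symbols for spots not well above background and lines at the MEF and iHep means. Ghr runs in the order iHep, MEF, hepatocytes, and Igf2, Pappa and Stc2 are not above background in hepatocytes.

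Of 9 tested proteases that cut binding proteins, or their inhibitors, 0 were higher by limma in the 3 comparisons, also at an unadjusted p under 0.05. Of these, 5 were lower in iHep than in MEF, 7 in hepatocytes than in MEF and 6 in hepatocytes than in iHep, where 13.2%, 25.1% and 22.1% of all genes were lower. Pappa, Stc2 and others of the 9 were not above background in hepatocytes. They passed the filter only through other groups, so it bears on their calls, and bounds are given without a test. Pappa, which cuts IGFBP4, had levels of 2.55, 3.48 and 3.45 in MEF and -0.01, -1.39 and -0.32 in iHep, and was not above background in hepatocytes. It was 12-fold lower in iHep than in MEF (-3.58 ± 0.52, adjusted p = 0.0108) and at least 435-fold lower in hepatocytes than in MEF. Stc2, an inhibitor of that protease, had levels of 1.15, -0.90 and -0.97 in MEF and 2.16, 1.47 and -1.03 in iHep. It was at least 58.3-fold lower in hepatocytes than in MEF. Htra1, a serine protease, was 13-fold lower in iHep than in MEF (-3.70 ± 0.66, adjusted p = 0.0186), but not without MEF 1 (adjusted p = 0.0846). Within slide 1, 1 of the 9, Adamts1, was lower for iHep against MEF (-2.56, adjusted p = 0.0435, named after its value was seen), and Pappa and Htra1 were not called (-3.12 and -3.36, adjusted p = 0.0719 and 0.115). Without iHep 4α3 the change of Htra1 was -3.11 (8.63-fold).

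Among 8 tested genes of CCN proteins and other proteins with an IGFBP domain, 8 were lower in hepatocytes than in MEF, where 25.1% of all genes were. Ccn3 and Ccn5 were not above background in hepatocytes and passed the filter only through other groups, so it bears on those calls. Against iHep 6 were lower and 1, Esm1, was higher, where 22.1% and 27.1% of all genes were. The filter bears on Ccn5 and Esm1 there. In iHep 2 were lower and 1 was higher than in MEF, where 13.2% and 10.1% of all genes were. Ccn3, a matrix protein, was 73.9-fold lower in iHep than in MEF (-6.21 ± 1.03, adjusted p = 0.0156), a call lost without MEF 1 and within slide 1 (adjusted p = 0.0862 and 0.101), and 36.8-fold lower without iHep 4α3. Esm1, a proteoglycan of endothelial cells, was above background on no iHep array and at least 13.3-fold lower there than in MEF. It passed the filter only through MEF and hepatocytes, so the filter bears on its call in iHep too and that bound is given without a test. Ccn5 was at least 87.1-fold lower in hepatocytes than in MEF, and Ccn2, a matrix protein induced in fibrosis, was 111-fold lower (-6.80 ± 0.73, adjusted p = 0.00178). Kazald1, a secreted protein of this family, ran in another order, with 1.30, -0.05 and -0.03 in MEF, 3.72, 3.51 and 3.30 in iHep and -1.26 in hepatocytes. It was 7.34-fold higher in iHep than in MEF (2.88 ± 0.44, adjusted p = 0.0121), in all 15 alternatives, and 11.7-fold higher without MEF 1. Of 27 tested adaptor and PI3K-Akt genes, 1 was higher and 4 were lower in iHep than in MEF. In hepatocytes 5 were higher and 8 lower than in MEF. The called shares, 5 of 27 and 13 of 27, stand beside 23.3% and 53.5% of all genes. Grb10, an adaptor that dampens the receptor, was 64.4-fold lower in iHep than in MEF (-6.01 ± 1.03, adjusted p = 0.0169), but not without MEF 1 or within slide 1 (adjusted p = 0.0926 and 0.106), and 129-fold lower without iHep 4α2. Irs1, the first substrate of both receptor kinases, was called in none of the 3 comparisons over all samples, with a level of 3.43 to 3.67 in MEF, 0.32 to 2.16 in iHep and 2.56 in hepatocytes. For iHep against MEF its change was -2.04 ± 0.61 (adjusted p = 0.0731), and without iHep 4α3 it was called (-1.46, adjusted p = 0.0161), as it was for hepatocytes against MEF (-0.99, adjusted p = 0.0276).

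Macrophages and endothelial cells of liver also express some of these genes, so their markers were read on the same arrays. The summed level of 10 macrophage markers was 6.13 to 6.78 in MEF, with 10 of 10 above background, 2.78 to 4.06 in iHep, with 4 to 6 of 10, and 3.49 in hepatocytes, with 10 of 10. The sum is led by Lyz2 in MEF (6.02 to 6.67) and by Cd14 in iHep (2.61 to 3.88), and is no measure of the list as a whole. Of the 10, 7 were lower and 1, Cd14, was higher in iHep than in MEF, and 6 were higher and 1 lower in hepatocytes than in iHep. Adgre1, C1qa, C1qc and Ptprc were above background on no iHep array. The summed level of 8 endothelial markers was 1.37 to 1.76 in MEF, -2.14 to 1.21 in iHep, where Lyve1 led it in 4α1 (1.14), and 2.84 in hepatocytes. Above background were 5 to 6 of 8 in MEF, 2 of 8 in iHep and 8 of 8 in hepatocytes, with Pecam1 and Cdh5 on no MEF or iHep array. Of 7 stellate cell markers 5 were above background in hepatocytes, where the sum was 0.72, against -0.12 to 0.73 in MEF and -2.23 to 0.66 in iHep. Hand2 and Gfap were not. The 10 fibroblast markers summed to 10.13 to 10.19 in MEF, 6.63 to 7.74 in iHep and 3.67 in hepatocytes, where Thy1 alone was not above background. Of the 10, 9 were lower in iHep than in MEF, and Dcn was not called (-0.22). Between hepatocytes and iHep, 5 were lower and 1, Lum, was higher in hepatocytes (2.83 ± 0.79, adjusted p = 0.0354). The part of other cells in these results was not tested.

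The genes whose levels over the 6 samples were nearest to each IGF gene, after centring on the mean and among 19123 tested genes, were as follows, as a description. For Igf1r it was Katnal2, with a root mean square difference of 0.08 on the log2 scale, and for Igf2r it was Pik3cd, with 0.11. Igfbp6 lay nearest to P3h4 and Pdk3, both at 0.18, Igfbp7 to Ramp3 at 0.22 and Igfbp4 to Dnah5 at 0.29. Igfbp3 lay nearest to Tmem119 at 0.41, and Igfbp1 to Afm, a plasma carrier of vitamin E, at 0.46. Igf1 had an unnamed transcript at 0.48 and then Colec10, a collectin, at 0.93. Igfbp5 lay nearest to Tmem200a at 0.63 and Igfbp2 to Lcp1 at 0.82, the largest distance of the 10.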

How the data were processed

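RNA of 7 samples was hybridised to Agilent mouse arrays in 1 colour. Per the file headers, the authors' scanner software was Agilent Feature Extraction 9.5.1.1, which gives for each spot a background-subtracted, detrended processed signal, an intensity on a linear scale not scaled across arrays. Deposited mean and local background intensities served 1 alternative. The deposited 0 and 1 flags are of another kind and mark spots above background, saturated or outlying. The authors also deposited a table of intensities of unstated making (column medians 66.3 to 66.4, r with the log2 scanner signal 0.9988 to 0.9999), which served as an alternative.

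Outlier spots (66 to 104 an array) were left out of 43379 spots, repeated spots were averaged, and 41138 of 41174 probes stayed. A level is log2 signal minus that of the array's 75th percentile. Probes were named through the GRCm38.p6 RefSeq table by accession (24350) or symbol (8719), or kept the file's name (7808), and 261 had none. The brightest probe stood for a gene, and 19133 of 27583 genes and unnamed probes, above background on all arrays of some group, were tested with limma 3.58.1 in R 4.3.3, all groups in 1 fit. No IGF probe was saturated. The fit was tested on simulated data. Promoter windows are from RefSeq, GRCm38.p6, and probe positions from the array's mm8 annotation, whose exons and UTRs were not used here. The number of arrays limits the precision.

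The 10 genes, the gene lists, the averaging of MEF 2 and MEF 3 and the tests were chosen with earlier results of these data known. Genes outside the 10 were named whatever their result (Igf2, Ghr, Igfals, Insr, Irs1, Pappa, Stc2) or from the called genes of each list with the largest changes, and 1 such gene is not reported here. Alternatives were other scalings, normexp background, the authors' table, the mean over probes, other filters, MEF 2 and MEF 3 apart, each replicate left out, slide as a block and, chosen after seeing the data, scan day as a block.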

Additional observations from a re-analysis of the deposited data

How the results depend on the processing

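For iHep against MEF, 4458 genes were called, 7306 with MEF 2 and MEF 3 as separate samples, 1668 with slide as a block, and 1638 to 4647 with each replicate left out. The 3 IGF genes called became 5 with MEF 2 and MEF 3 separate, 0 with slide as a block and 1 to 4 with a replicate left out. For hepatocytes against MEF the 9 calls became 5 to 10 with a replicate left out, and for hepatocytes against iHep the 7 became 4 to 7. Over all genes the counts with a replicate left out were 7445 to 11226 (10232 called) and 7359 to 10194 (9421 called). Slide as a block reversed the uncalled changes of Igfbp4 (-0.44) and Stc2 (-0.28) for iHep against MEF, and the cause was not tested. Igf1r, Igf2r and Igfbp4 against MEF, and Igf1 and Igf1r against iHep, kept their hepatocyte calls in all 15 alternatives. Igfbp6 kept both in the 14 that tested it, but its hepatocyte reading was not well above background and the filter bears on both calls. Quantile normalization moved the median change of all genes from 0.14 to -0.00 and from 0.17 to -0.02 in the hepatocyte comparisons. The hepatocyte array is alone on its slide, so slide and group cannot be told apart there. No paired analysis was possible because the numbers of the iHep samples are types and not replicates shared with MEF. Probes near background bound levels but do not measure them.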
